A study of Mus musculus with 8 samples.

Results

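Ccr7, Il7r, Tcf7, Lef1, Foxo1, Foxp1, Satb1, Bach2 and Id3 are genes of the quiescent, stem-like and memory state of CD8 T cells. They were taken by symbol, 9 of the 41730 entries of the deposited count table, and all 9 passed the filter on low counts, as did 12162 entries in all. The samples were OT-I CD8+ T cells, which carry a transgenic receptor for the ovalbumin peptide SIINFEKL. They had been cultured with bone marrow-derived dendritic cells (BMDCs) pulsed with that peptide and were then isolated by flow cytometry. One group of 4 libraries came from cultures with RGX-104 at 2 µM, a drug that activates LXR (the liver X receptors, which sense oxidised cholesterol), and the other 4 from cultures with the solvent DMSO. All 8 libraries thus came from T cells that had met antigen, with no unstimulated T cells among the groups, so the values compare activated cells with and without the agonist. Neither the age of the animals nor the length of the culture is given in the labels. The comparison asks whether the agonist in the co-culture altered transcripts of the T cells.

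A naive CD8 T cell circulates through lymph nodes, guided by the chemokine receptor CCR7, and survives on interleukin 7, which it senses through the receptor chain encoded by Il7r. Its resting state is held by transcription factors such as TCF-1 (encoded by Tcf7), LEF-1, FOXO1, FOXP1 and the repressor BACH2, and by the chromatin regulator SATB1. When the cell is activated, many of these genes are turned down as effector regulators such as T-bet (Tbx21) and Blimp-1 (Prdm1) take over. Cells that keep or regain TCF-1, ID3 and IL-7 receptor are the ones known to form memory.

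None of the 9 genes passed the test between RGX-104 and DMSO cells once p-values were adjusted over all genes tested. Before adjustment, the 95% intervals of the fold for Tcf7 (1.02 to 1.23) and Id3 (1.02 to 4.20) lay above equality. For 8 of them the difference was small and tightly bounded: the log2 fold change lay between -0.10 (Lef1) and 0.17 (Tcf7), and the 95% interval of the fold lay inside a 1.5-fold change in either direction. Such an interval was found for 60.2% of all genes tested. Only Id3, read at 8 to 29 counts per library, left room for a larger difference. By edgeR's quasi-likelihood test 0 of the 9 were called at an adjusted p under 0.05, against 2.66% of all genes tested (0.888% higher and 1.78% lower). DESeq2 and limma-voom called 0 of them as well, but DESeq2 gave Id3 no adjusted p and so could not call it. At an unadjusted p under 0.05 edgeR had Tcf7 and Id3, 2 of 9, beside 13.8% of all genes. DESeq2 and limma-voom each had 1 of 9 at that level. The median log2 fold change was 0.03 over the 9 genes and 0.00276 over all genes tested, and 7 of the 9 had a positive sign against 6152 of 12162. In all 9 the ranges of the groups overlapped, while 8.20% of all genes showed no overlap.

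**Figure D1:**
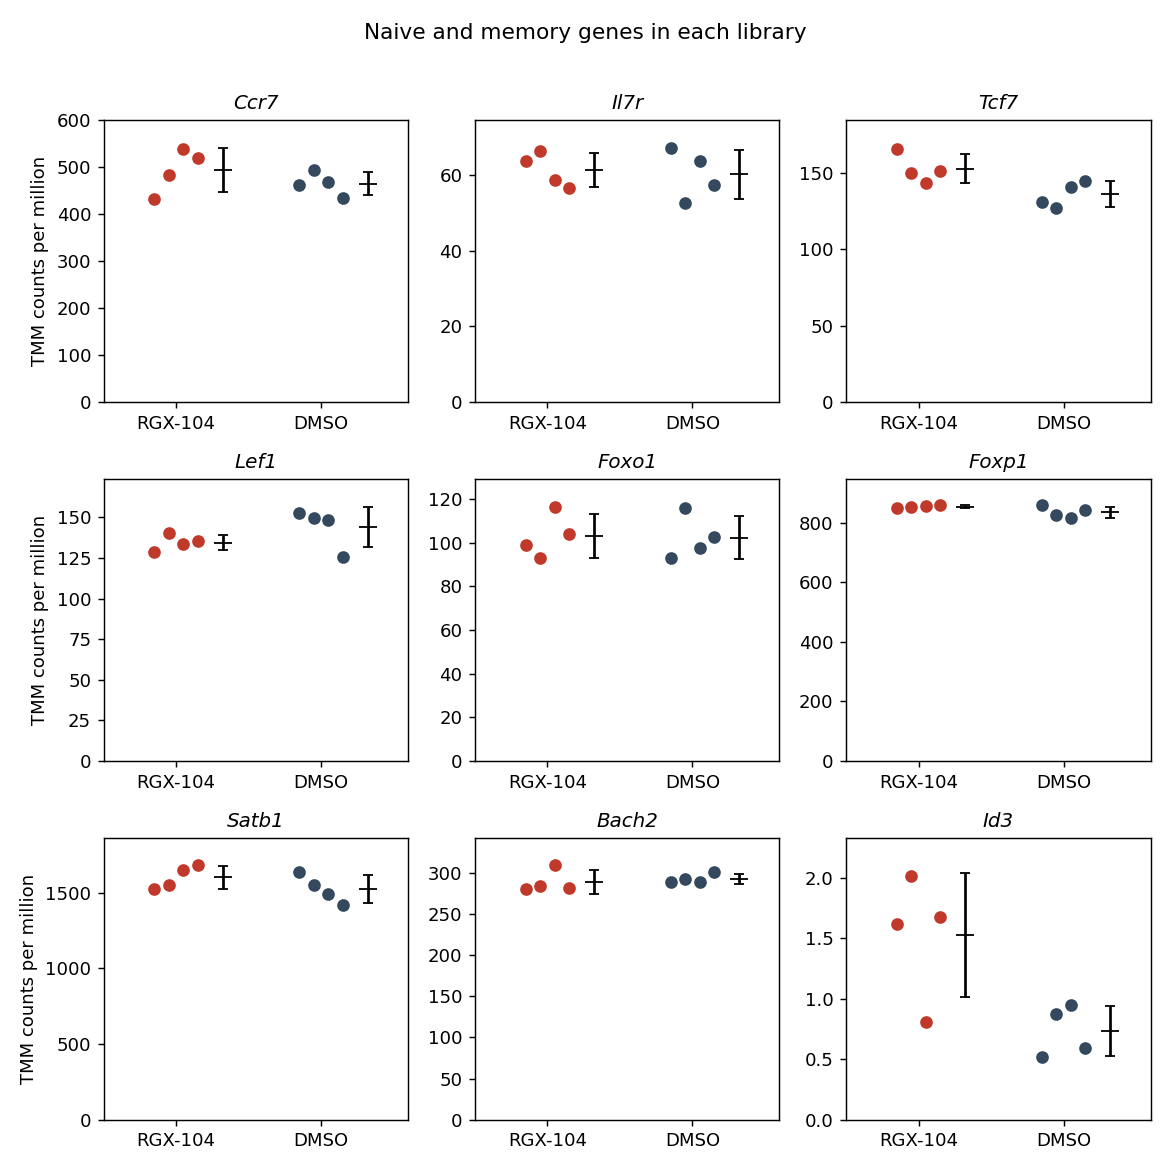
Level of each of the 9 genes in each library, in counts per 1000000 with TMM scaling (CPM; vertical axes start at 0 and differ between panels). Points are the 4 libraries of each group in the order of their replicate numbers, and the bar beside them is the mean ± SD. The groups overlap in every panel, and Id3 is the gene near 1 CPM.

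Library depth was 13144704 to 14947537 counts with RGX-104 and 14867824 to 15966972 with DMSO (exact two-sided permutation test of the means, p = 0.0571, n = 4 per group, where 0.0286 is the smallest p possible). The labels give no batch and do not say whether libraries came from separate cultures or mice, so p-values measure the spread between these samples only, which may be technical. All 4 LXR target genes read as a check of the labels (Abca1, Abcg1, Mylip and Srebf1) rose: Abca1, the cholesterol exporter, was at 85.2 ± 5.42 CPM with RGX-104 and 8.13 ± 0.569 CPM with DMSO. Levels below are TMM-scaled counts per 1000000 (CPM, mean ± SD, n = 4 per group), replicates 5 to 8 with RGX-104 and 1 to 4 with DMSO. Fold changes are log2 of RGX-104 over DMSO with the standard error (SE) and the adjusted p of edgeR's quasi-likelihood test over all genes. Reads were taken near transcript ends, so a CPM is not corrected for length and levels are compared between groups, not between genes. In bulk RNA a smaller share of cells expressing a gene and less RNA per cell cannot be told apart.

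Ccr7, the lymph node homing receptor (chromosome 11, 99144199 to 99155077, GRCm38.p6), was at 432, 484, 539 and 519 CPM in RGX-104 replicates 5 to 8, against 462, 495, 469 and 435 CPM in DMSO replicates 1 to 4. Its highest and its lowest library were both RGX-104 libraries. The means were 493 ± 46.9 CPM with RGX-104 and 465 ± 24.7 CPM with DMSO (log2 fold change 0.09 ± 0.06 SE, adjusted p = 0.571). The 95% interval of the fold ran from 0.973 to 1.16. Without RGX-104 replicate 5, the lowest library, the log2 fold change was 0.15 and still not called (adjusted p = 0.207). Without RGX-104 replicate 7, the highest library, it was 0.04 (adjusted p = 0.86).

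Of 10 ligands and signalling partners of CCR7, 6 could be tested and edgeR called 0, against 2.66% of all genes. At an unadjusted p under 0.05 there were 0 of the 6, against 13.8% of all genes. Gnai3, a G protein subunit that relays the receptor's signal, had the smallest p, at 91.1 ± 5.95 CPM with RGX-104 and 83.6 ± 10.8 CPM with DMSO (log2 fold change 0.12 ± 0.09 SE, adjusted p = 0.560). The ligand genes Ccl19 and Ccl21a were listed at 0 in all libraries.

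Mature dendritic cells also carry Ccr7, so their markers were read beside it. Of 16 dendritic cell markers 9 could be tested and 0 were called by edgeR, against 2.66% of all genes. At an unadjusted p under 0.05 there were 2 of the 9, against 13.8% of all genes. The log2 fold change was negative in 6 of the 9 (median over the 9, -0.22). The summed level of the 16 markers was 101 to 127 CPM with RGX-104 and 110.02 to 122 CPM with DMSO. Most of it was Cst3 (68.9 CPM with RGX-104 and 68.0 CPM with DMSO), Cd83 (24.4 CPM with RGX-104 and 25.2 CPM with DMSO) and Cd74 (5.58 CPM with RGX-104 and 6.52 CPM with DMSO). H2-Aa, H2-Ab1, H2-Eb1 and Il4i1 were listed at 0 in all libraries. The symbols of the first 3 stand in the table again with a number appended, so their 0 is not read as absence. The markers Fscn1 and Ccl22, typical of the mature cells that carry Ccr7, were at 2.37 and 1.61 CPM with RGX-104 and at 4.23 and 3.66 CPM with DMSO. They are the 2 markers with an unadjusted p under 0.05 and were named after their values were seen. Of the 3 tested markers with a positive sign, Itgax was at 1.66 CPM with RGX-104 and 1.11 CPM with DMSO. Cacnb3, also positive, was at 2.44 CPM with RGX-104 and 1.74 CPM with DMSO. The part of dendritic cell RNA in the Ccr7 values was not tested.

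Il7r (chromosome 15, 9506159 to 9529941) encodes the receptor chain specific to interleukin 7. Its level was 63.7, 66.5, 58.7 and 56.5 CPM with RGX-104, against 67.1, 52.6, 63.8 and 57.4 CPM with DMSO. The RGX-104 libraries all fell within the range of the DMSO libraries. The means of 61.4 ± 4.57 CPM with RGX-104 and 60.2 ± 6.50 CPM with DMSO gave a log2 fold change of 0.03 ± 0.09 SE (adjusted p = 0.934), with a 95% interval of the fold from 0.893 to 1.16. Of 10 genes that act with this receptor, 8 could be tested, and 0 were called by edgeR, against 2.66% of all genes. At an unadjusted p under 0.05 there were 2 of the 8, against 13.8% of all genes. Il2rg, the common gamma chain that pairs with the IL-7 receptor, had the smallest p among them at 243 ± 23.9 CPM with RGX-104 and 213 ± 10.3 CPM with DMSO (log2 fold change 0.19 ± 0.06 SE, adjusted p = 0.137). Socs1, the other gene at that level, was at 53.1 ± 5.17 CPM with RGX-104 and 43.5 ± 5.42 CPM with DMSO (log2 fold change 0.29 ± 0.10 SE, adjusted p = 0.193). Jak1, the kinase bound to the alpha chain, had a log2 fold change of -0.05. Stat5a and Stat5b, the transcription factors downstream, had 0.06 and -0.03. The median over the 8 was 0.08, with 6 positive and 2 negative.

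Tcf7, which encodes TCF-1, the factor that marks stem-like and memory precursor CD8 cells (chromosome 11, 52246527 to 52283383), was at 166, 149.9, 144 and 152 CPM with RGX-104, against 131, 127, 141 and 145 CPM with DMSO. Of the RGX-104 libraries only replicate 7 lay inside the DMSO range, below DMSO replicate 4. The means were 153 ± 9.45 CPM with RGX-104 and 136 ± 8.28 CPM with DMSO, a log2 fold change of 0.17 ± 0.06 SE with an unadjusted p of 0.0183 and an adjusted p of 0.235. The 95% interval of the fold ran from 1.02 to 1.23. Of the 8 bounded genes Tcf7 had the largest estimate, and an increase above 1.23-fold lay outside its interval.

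Lef1, the related factor that acts with TCF-1 (chromosome 3, 131110297 to 131224357), was at 129, 140.2, 134 and 135 CPM with RGX-104, against 153, 149, 149 and 126 CPM with DMSO. DMSO replicate 4 was the lowest of all 8 libraries, while the other 3 DMSO libraries were above every RGX-104 library. The means were 134 ± 4.75 CPM with RGX-104 and 144 ± 12.3 CPM with DMSO (log2 fold change -0.10 ± 0.07 SE, adjusted p = 0.541), with a 95% interval of the fold from 0.847 to 1.03. Without DMSO replicate 4 the log2 fold change was -0.16 (adjusted p = 0.264), and over all alternatives it ran from -0.16 to -0.07. Exons of Lef1 overlap those of the antisense gene Gm43352 over 1208 bp, and the strand setting of the counting is not given in the sources used here. Shorter overlaps with predicted gene models touch Foxo1 (674 bp, Gm20402), Foxp1 (300 bp, Gm20696) and Satb1 (156 bp, Gm36931), and reads there could belong to either gene.

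Of 12 cofactors of TCF-1 and LEF-1, 11 could be tested and edgeR called 0, against 2.66% of all genes. At an unadjusted p under 0.05 there were 3 of the 11, against 13.8% of all genes. Ctnnb1, which encodes beta-catenin, had the smallest p, at 177 ± 6.77 CPM with RGX-104 and 161 ± 6.65 CPM with DMSO (log2 fold change 0.13 ± 0.06 SE, adjusted p = 0.300), and its groups did not overlap. The corepressor Tle4 had a log2 fold change of -0.19 and the coactivator Bcl9l 0.28. Axin2, a target of the beta-catenin pathway in many tissues, was at 5.37 and 4.90 CPM in RGX-104 and DMSO cells (log2 fold change 0.13, adjusted p = 0.873).

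Foxo1, the forkhead factor that drives Il7r, Ccr7 and Klf2 in naive T cells (chromosome 3, 52268337 to 52350109), was at 98.9, 93.0, 116 and 104 CPM with RGX-104, against 93.0, 116, 97.7 and 103 CPM with DMSO. The groups covered nearly the same range. The means of 103 ± 9.86 CPM with RGX-104 and 102 ± 9.82 CPM with DMSO gave a log2 fold change of 0.01 ± 0.08 SE (adjusted p = 0.974), with an interval of the fold from 0.897 to 1.13. FOXO1 is governed mainly by phosphorylation and export from the nucleus, which RNA does not show. Known FOXO targets were read beside it, on a list chosen with earlier results of these data known. Whether they report FOXO1 activity in these cells was not tested.

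Of 13 FOXO target genes outside the 9, 12 could be tested, and 2 fell while 0 rose, beside 1.78% and 0.888% of all genes tested. Their median log2 fold change was -0.13 (0.00276 over all genes), and 9 of the 12 were negative, against 6010 of 12162. At an unadjusted p under 0.05 there were 4 of the 12, against 13.8% of all genes. Bcl6, a repressor needed by memory precursor and follicular T cells, fell to 16.3, 13.4, 14.6 and 15.2 CPM with RGX-104, against 34.2, 27.7, 39.4 and 26.0 CPM with DMSO (log2 fold change -1.10 ± 0.14 SE, adjusted p = 4.72e-05). Cdkn1b, which encodes the cell cycle inhibitor p27, fell to 19.3 ± 1.52 CPM with RGX-104, against 30.0 ± 3.64 CPM with DMSO (log2 fold change -0.64 ± 0.13 SE, adjusted p = 0.00572). In both genes every RGX-104 library lay below every DMSO library. The same held for Ccng2 (log2 fold change -0.94, adjusted p = 0.219) and Irs2 (-0.29, adjusted p = 0.300), which were not called. Groups without overlap were thus seen in 4 of the 12, against 8.20% of all genes. Klf2 and S1pr1, which direct T cell recirculation, were not called. Klf2, which keeps T cells quiescent and recirculating, averaged 13.0 ± 3.82 CPM with RGX-104 and 13.6 ± 1.51 CPM with DMSO (log2 fold change -0.06, adjusted p = 0.929). Its target S1pr1, the receptor for leaving lymph nodes, averaged 10.99 ± 0.214 CPM with RGX-104 and 12.3 ± 1.69 CPM with DMSO (-0.16, adjusted p = 0.750). Foxo3, the paralogue of Foxo1, averaged 20.1 ± 2.31 CPM with RGX-104 and 22.1 ± 4.23 CPM with DMSO.

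Foxp1, which enforces T cell quiescence (chromosome 6, 98925342 to 99522746), was at 849.6, 853, 856 and 860.1 CPM with RGX-104, against 859, 826, 817 and 845 CPM with DMSO. The RGX-104 libraries lay close together, within and just above the upper part of the DMSO range. The means were 855 ± 4.48 CPM with RGX-104 and 837 ± 18.9 CPM with DMSO (log2 fold change 0.03 ± 0.04 SE, adjusted p = 0.806), and the 95% interval of the fold, 0.964 to 1.083, was the narrowest of the 9. Its paralogue Foxp4 averaged 28.0 ± 4.21 CPM with RGX-104 and 23.9 ± 2.27 CPM with DMSO (adjusted p = 0.472). It had the smallest p of 13 paralogues of the 9 genes. The symbol Foxp4 is repeated with a number appended, and reads under the repeated symbol are not in these values. Of the 13 paralogues, 8 could be tested and edgeR called 0, against 2.66% of all genes. At an unadjusted p under 0.05 there were 0 of the 8, against 13.8% of all genes. Foxp3 was too low to be tested, at 0.070, 0.348, 0 and 0 CPM with RGX-104 and 0 in every DMSO library.

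Satb1, an organiser of chromatin loops in T cells (chromosome 17, 51736187 to 51833290), was at 1522, 1551, 1649.9 and 1680.2 CPM with RGX-104, against 1635, 1551, 1489.6 and 1415 CPM with DMSO. The highest 2 libraries were RGX-104 and the lowest 2 were DMSO. The means were 1601 ± 76.2 CPM with RGX-104 and 1523 ± 93.4 CPM with DMSO (log2 fold change 0.07 ± 0.05 SE, adjusted p = 0.528), with an interval of the fold from 0.983 to 1.12.

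Bach2, the repressor that holds back effector genes by competing with AP-1 factors (chromosome 4, 32238413 to 32586109), was at 280.3, 284, 310.2 and 282 CPM with RGX-104, against 289, 292, 289 and 302 CPM with DMSO. Apart from RGX-104 replicate 7, the highest of all 8, the RGX-104 libraries lay below every DMSO library. The means of 289 ± 14.2 CPM with RGX-104 and 293 ± 6.03 CPM with DMSO gave a log2 fold change of -0.02 ± 0.05 SE (adjusted p = 0.910) and an interval of the fold from 0.916 to 1.06. Its paralogue Bach1 averaged 8.88 CPM with RGX-104 and 8.83 CPM with DMSO (adjusted p = 0.995). Bach2os, the antisense gene whose exons overlap those of Bach2 over 537 bp, had a mean of 0.125 counts. B cells also express Bach2, Foxp1 and Ccr7, and the summed level of 7 B cell markers was 1.90 to 2.34 CPM with RGX-104 and 2.11 to 2.96 CPM with DMSO, with Cd79a listed at 0.

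Id3, an inhibitor of E protein transcription factors that is kept in memory precursor cells (chromosome 4, 136143822 to 136145392), was scarcely detected. It had 23, 29, 12 and 22 counts with RGX-104, against 8, 13, 15 and 9 counts with DMSO, which is 1.61, 2.02, 0.803 and 1.68 CPM with RGX-104 against 0.517, 0.874, 0.946 and 0.595 CPM with DMSO. RGX-104 replicates 5, 6 and 8 were above every DMSO library, while replicate 7 lay inside the DMSO range. In replicate 7 the exact Poisson 95% interval of the level, for counting error only, was 0.415 to 1.403 CPM, and in replicate 6 it was 1.35 to 2.90 CPM. The means were 1.53 ± 0.514 CPM with RGX-104 and 0.733 ± 0.209 CPM with DMSO, a log2 fold change of 1.05 ± 0.49 SE with an unadjusted p of 0.0449 and an adjusted p of 0.348. The 95% interval of the fold ran from 1.02 to 4.20, so it reached from near equality to a 4.20-fold higher level.

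ID3's counterpart Id2, the inhibitor that prevails in effector cells, was at 88.9 ± 6.03 CPM with RGX-104 and 94.5 ± 9.02 CPM with DMSO (log2 fold change -0.09, adjusted p = 0.684). The E proteins these inhibitors bind were not called either, with log2 fold changes of -0.08 for Tcf3, -0.10 for Tcf4 and 0.05 for Tcf12. Of these 5 genes, Id1 included, edgeR called 0, against 2.66% of all genes. At an unadjusted p under 0.05 there were 0 of the 5, against 13.8% of all genes.

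**Figure D2:**
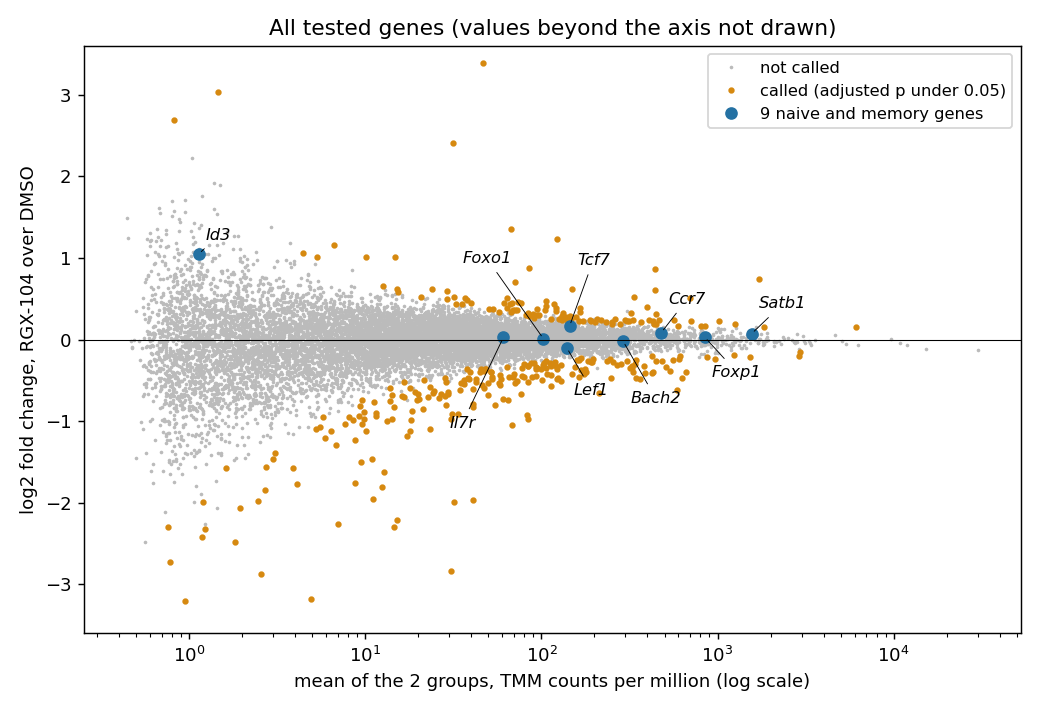
Log2 fold change of RGX-104 over DMSO against the mean level in CPM (log scale) for the 12162 genes tested; 1 gene beyond the vertical axis is not drawn. Blue points are the 9 naive and memory genes, orange points genes with an adjusted p under 0.05. All of the 9 except Id3 (log2 fold change 1.05) sit near 0, at levels where other genes were called.

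Some genes of the wider naive and memory programme were called. Their list, like the others here, was chosen with earlier results of these data known. Of 26 further genes of this programme, 25 could be tested, and 2 rose and 2 fell, beside 0.888% and 1.78% of all genes. Counts on a list chosen in this way do not show whether the programme as a whole moved. The median log2 fold change of the 25 was 0.05, 15 were positive, and 7 had an unadjusted p under 0.05, against 13.8% of all genes. Eomes, a T-box factor of memory and effector CD8 cells, rose to 179.8, 182, 185 and 179 CPM with RGX-104, against 126, 97.1, 122 and 128 CPM with DMSO (log2 fold change 0.62 ± 0.07 SE, adjusted p = 1.13e-05). Ets1, which supports expression of Il7r and T cell survival, rose to 150.4 ± 5.62 CPM with RGX-104, against 128 ± 6.03 CPM with DMSO (0.24 ± 0.06 SE, adjusted p = 0.0346), but the call was lost when any 1 of the 8 libraries was left out (adjusted p between 0.0582 and 0.118). Bcl2, the survival protein sustained by IL-7, fell to 137 ± 10.4 CPM with RGX-104, against 174 ± 13.8 CPM with DMSO (log2 fold change -0.34 ± 0.07 SE, adjusted p = 0.00587). Bcl6, described with the FOXO targets, was the other gene that fell.

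The remaining 21 tested genes of that list were not called. Klf3, a Krüppel-like repressor, was nearest to the threshold, at 43.2 ± 4.50 CPM with RGX-104 and 55.3 ± 4.77 CPM with DMSO with no overlap (log2 fold change -0.36, adjusted p = 0.0576). DESeq2 called it (adjusted p = 0.0143), as did edgeR under a stricter filter on low counts (adjusted p = 0.0219). Cd27, the costimulatory receptor of naive and memory cells, averaged 123 CPM with RGX-104 and 109 CPM with DMSO (0.18, adjusted p = 0.224). The naive-cell genes Dapl1, Actn1 and Igfbp4 had log2 fold changes of 0.05, 0.11 and -0.10. Bcl11b and Zeb1 had 0.02 and -0.11. Treml2 was listed at 0 in all libraries with a repeated symbol, so its 0 is not read as absence, and it was not tested.

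**Figure D3:**
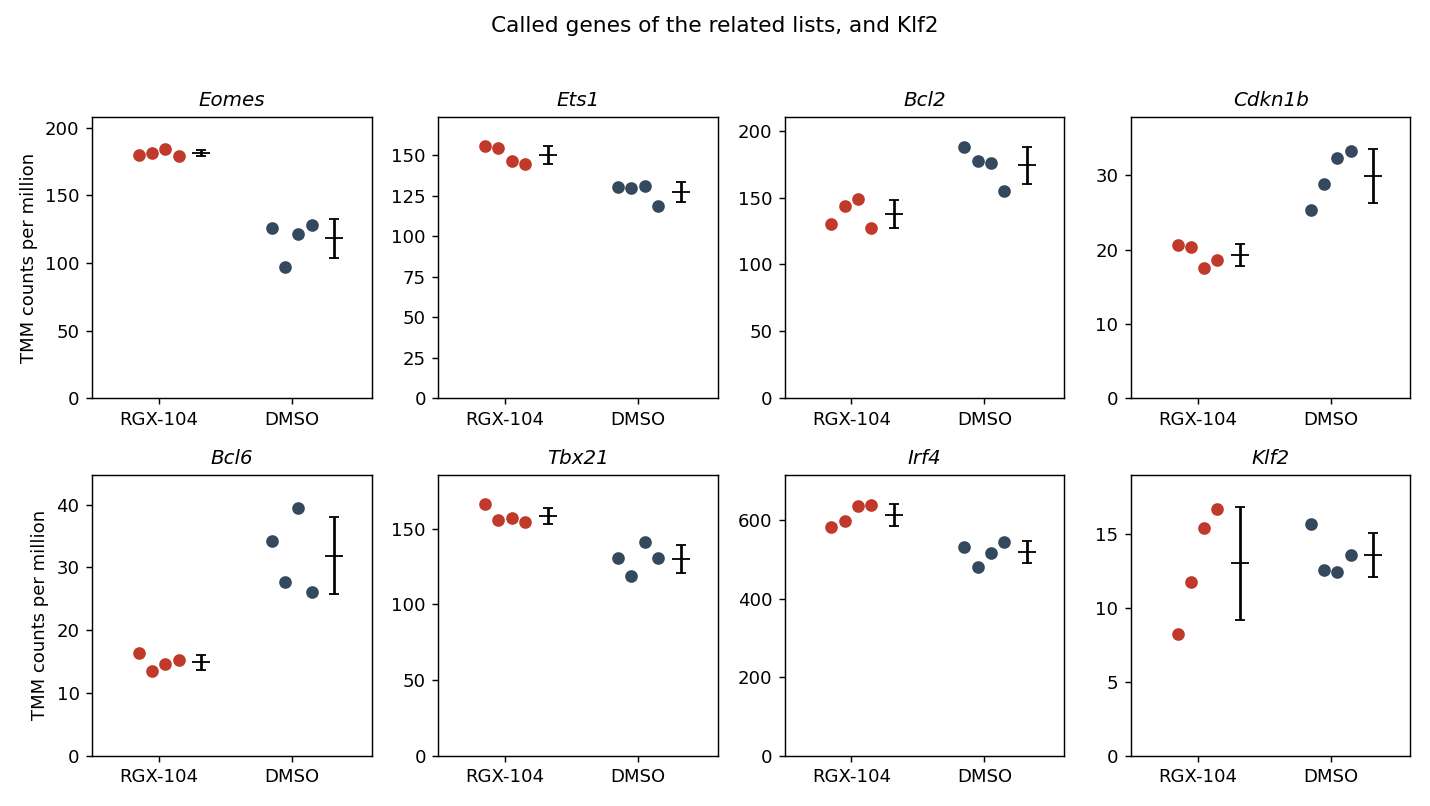
Level in each library, in TMM-scaled CPM, of the 7 called genes of the related lists and of Klf2 (vertical axes start at 0). Points are the 4 libraries of each group in the order of their replicate numbers, and the bar beside them is the mean ± SD. The groups separate in all 7 called genes and overlap in Klf2.

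Genes that oppose the naive state were read last. Of 12 such effector regulators 10 could be tested, and 2 rose and 0 fell, beside 0.888% and 1.78% of all genes. At an unadjusted p under 0.05 there were 6 of the 10, against 13.8% of all genes. Of these 6, Tbx21 and Irf4 were higher. The others were lower and not called by edgeR on all 8 libraries: Zeb2 (log2 fold change -0.37), Bhlhe40 (-0.23), Hif1a (-0.16) and Cx3cr1 (-1.40). The median log2 fold change of the 10 was -0.01, with 5 positive and 5 negative. Tbx21, the master factor of effector CD8 cells, rose to 166, 156, 157 and 154 CPM with RGX-104, against 130.4, 118, 141 and 130.5 CPM with DMSO (log2 fold change 0.28 ± 0.06 SE, adjusted p = 0.0144). Without DMSO replicate 2 it missed the threshold (adjusted p = 0.0611). Irf4, which scales with T cell receptor signal strength, rose to 615 ± 28.4 CPM with RGX-104, against 519 ± 27.9 CPM with DMSO (0.24 ± 0.05 SE, adjusted p = 0.00646). Prdm1, the target of repression by BACH2, averaged 19.9 ± 3.59 CPM with RGX-104 and 18.0 ± 3.39 CPM with DMSO (log2 fold change 0.15, adjusted p = 0.759). Cx3cr1, a receptor of terminal effector cells, was at 1.18 ± 0.263 CPM with RGX-104 and 3.14 ± 0.644 CPM with DMSO (-1.401, adjusted p = 0.0562), and DESeq2 called it (adjusted p = 0.0137). Runx3 was listed at 0 with a repeated symbol. Outside these lists, the antigen experience marker Cd44 rose to 360 ± 12.8 CPM with RGX-104, against 287 ± 11.2 CPM with DMSO (0.33 ± 0.05 SE, adjusted p = 0.000378).

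**Figure D4:**
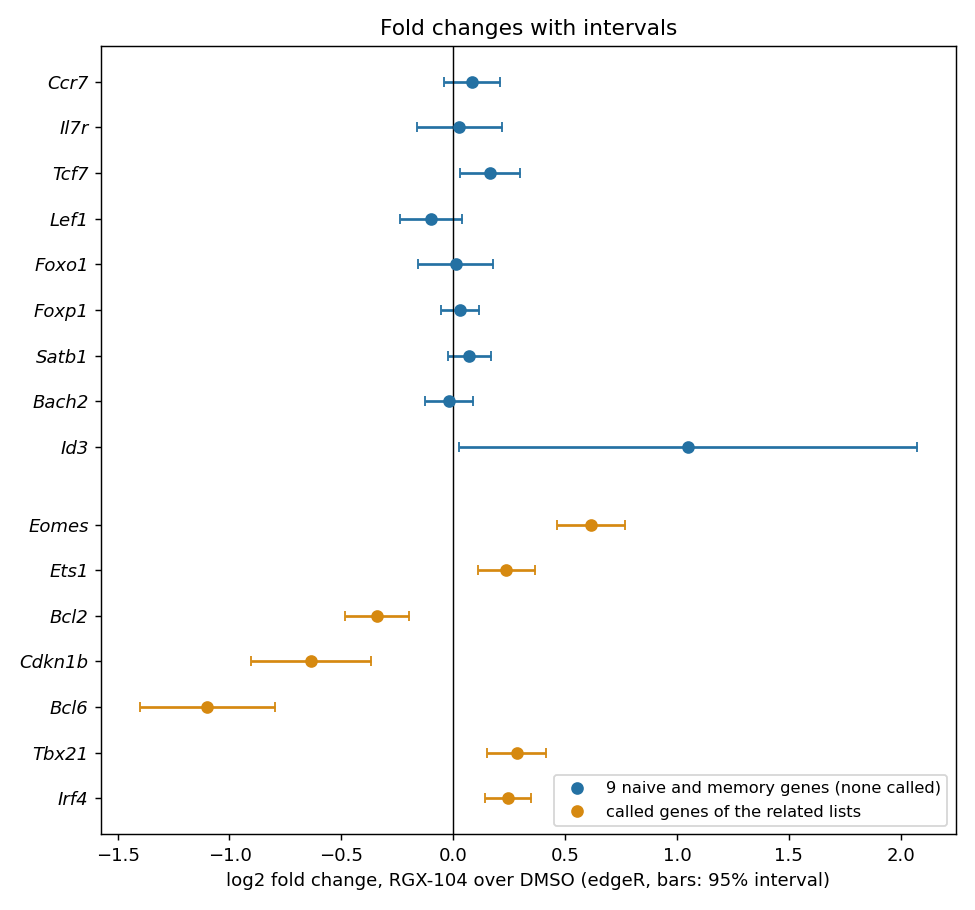
Log2 fold change of RGX-104 over DMSO with its 95% interval from edgeR's quasi-likelihood test, for the 9 naive and memory genes (blue) and the 7 called genes of the related lists (orange). The blue intervals of Tcf7 (0.03 to 0.30) and Id3 (0.03 to 2.07) lie above 0 without adjustment and the other 7 include 0. All 7 orange ones exclude 0 by the choice of called genes, since the call and the interval come from the same test.

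Of 10 CD8 T cell markers 4 rose and 0 fell by edgeR, beside 0.888% and 1.78% of all genes. They were Cd8a (log2 fold change 0.52, adjusted p = 3.14e-07), Cd8b1 (0.39, adjusted p = 2.89e-05), Lat (0.39, adjusted p = 0.00123) and Thy1 (0.19, adjusted p = 0.0258). The 10 markers had a summed level of 2304 to 2387 CPM with RGX-104 and 1955 to 2005 CPM with DMSO. The part of this shift in the higher values of Eomes, Tbx21, Irf4 and Cd44 was not tested. The markers of CD4+ T cells and of regulatory T cells summed to 3.28 to 5.84 CPM with RGX-104 and 4.86 to 6.14 CPM with DMSO, and those of NK cells to 0.842 to 1.83 CPM with RGX-104 and 0.711 to 3.15 CPM with DMSO. Macrophage and monocyte markers summed to 47.1 to 55.5 CPM with RGX-104 and 42.2 to 50.1 CPM with DMSO.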

How the data were processed

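RNA from sorted OT-I CD8+ T cells was sequenced near transcript ends (Lexogen 3' FWD kit, per the labels' protocols). The authors deposited whole-number read counts per gene symbol, without normalisation. The submitters' processing notes name STAR 2.7.8a, R 4.1.0, DESeq2 1.4 and the build GRCm38, while counter, strand setting and handling of molecular identifiers are not given. Intervals of single counts therefore cover counting error only. Each column was assigned through the title it matches, and 0 columns lacked a sample.

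The main test was edgeR 4.0.16 (R 4.3.3), two-sided: genes passing filterByExpr, TMM factors, then glmQLFit (not robust) and glmQLFTest on 4 against 4 libraries without covariates. P-values were adjusted by Benjamini-Hochberg over the 12162 genes that passed, and an adjusted p under 0.05 was called. The SE is the log2 fold change over the square root of F, and 95% intervals of the fold are t intervals on it. The common coefficient of biological variation was 14.5%. Chi-square per degree of freedom between libraries of the same group was 6.61 to 10.2, so no column was a copy of another. It cannot show whether libraries shared a culture or an RNA sample. Alternatives were DESeq2 1.42.0, limma-voom (limma 3.58.1), other scalings and filters, and leaving out each library.

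The 9 genes and all lists were chosen with earlier results of these data known. Named were all 9 genes, and from each list its called genes or else the one with the smallest p. Genes named whatever their result were Klf2, S1pr1, Eomes, Bcl2, Id2, Prdm1, Tbx21, Cd44, Foxo3, Bach1 and Il2rg, with the defining markers at 0 and the most abundant markers of dendritic cells. A further gene is not reported here. Id1, Jak1, Stat5a, Stat5b, Socs1, Tle4, Bcl9l, Axin2, Tcf3, Tcf4, Tcf12, Ccng2, Irs2, Foxp3, Klf3, Cd27, Dapl1, Actn1, Igfbp4, Bcl11b, Zeb1, Treml2, Cx3cr1, Hif1a, Zeb2, Bhlhe40, Runx3, Ccl19, Ccl21a, Fscn1, Ccl22, Itgax, Cacnb3 and Ctss were added after their values were seen. Coordinates are 1-based from RefSeq (GRCm38.p6), and exon overlaps come from GENCODE M21 on GRCm38.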

Additional observations from a re-analysis of the deposited data

Results flagged for a closer look

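Of 18 groups of 4 libraries (9 genes, each with RGX-104 and with DMSO), 2 held a library far from the other 3 by Dixon's criterion, which chance alone gives in about 1 of 20 groups. Bach2 was at 310.2 CPM in RGX-104 replicate 7, above the other RGX-104 libraries at 280.3 to 284 CPM. Lef1 was at 126 CPM in DMSO replicate 4, below the other DMSO libraries at 149 to 153 CPM. Without the library in question neither gene was called, and the log2 fold changes were -0.06 for Bach2 and -0.16 for Lef1.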

How the results depend on the processing

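No paired analysis was possible because the groups share no replicate numbers (5 to 8 with RGX-104, 1 to 4 with DMSO). None of the 9 genes was called under any of the 16 alternatives (15 for Id3, which the strict filter of 5 CPM in 4 libraries removed). DESeq2, counted among those 15, gave Id3 no adjusted p and so could not call it. The smallest adjusted p was 0.153 (Tcf7, DESeq2). Ccr7, Tcf7, Foxp1, Satb1 and Id3 stayed positive and Lef1 and Bach2 negative under all of these. With 1 library left out, the log2 fold change ran from -0.0317 to 0.0838 for Il7r (negative without RGX-104 replicate 6, -0.0133, and without DMSO replicate 2) and from -0.0530 to 0.0760 for Foxo1 (negative without RGX-104 replicate 7, without DMSO replicate 1, -0.0320, and without DMSO replicate 3, -0.0104). Over all genes DESeq2 called 190 higher and 295 lower, against 108 and 216 in edgeR; the cause was not tested. With 1 library left out, 57 to 93 were higher and 144 to 211 lower, from fewer samples. Bcl2, Bcl6, Cdkn1b, Eomes and Irf4 stayed called under all 16 alternatives, Tbx21 under 15 and Ets1 under 8. Hif1a, an effector regulator, was called lower only without DMSO replicate 4 (adjusted p = 0.0487). Other scalings moved the median log2 fold change of all genes to between -0.00400 and 0.00677. Id3 had a mean of 16.4 counts per library. Its coefficient of biological variation in the edgeR fit was 39.2%, against the common value of 14.5%. The part of depth in its wide interval was not tested.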

Other observations

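The ratio of Tcf7 to Lef1 within a library was looked at after the opposite signs of their fold changes had been seen. On the log2 scale it averaged 0.18 ± 0.13 in RGX-104 libraries and -0.08 ± 0.20 in DMSO libraries (SD, n = 4 per group). The ratio was 0.37, 0.10, 0.10 and 0.16 in RGX-104 replicates 5 to 8, against -0.22, -0.23, -0.08 and 0.20 in DMSO replicates 1 to 4. The difference of 0.26 did not pass an exact two-sided permutation test (p = 0.114).

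The 9 genes together took 3542 to 3808 CPM per library with RGX-104 and 3428 to 3689.7 CPM with DMSO, and these ranges overlap.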
